A study of Homo sapiens with 15 samples.

Results

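The RNA of MDA-MB-231 cells was measured without drug, in the 3 libraries of the vehicle group among the 15 libraries of the series. MDA-MB-231 is an established human breast cancer line that was derived from a pleural effusion, and a single line stands for no other tumor. The 3 libraries were chosen by their labels alone and came from triplicate dishes of 2D culture. The dishes were at 75 to 80% confluency with 10% fetal bovine serum and received 0.1% DMSO for 6 h. The other 12 libraries came from dishes that received 0.5, 5, 50 or 500 nM ZJ-101, a simplified relative of superstolide A, a macrolide of marine sponges, for the same 6 h, with 3 dishes per dose. All RNA had a RIN above 9.5, and the medium named in the sample labels differs from the one named in the methods. The dishes of 1 line share their cells, so the spread given below is that between dishes.

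MDA-MB-231 is widely used as a model of invasive breast cancer. Breast epithelium holds luminal cells, which respond to estrogen and progesterone and carry keratins 8, 18 and 19, and basal cells, which carry keratins 5 and 14 and touch the basement membrane. In an epithelial to mesenchymal transition, cells give up junctions built on E-cadherin and take up vimentin and a motile shape, under transcription factors such as ZEB1, SNAI2 and TWIST1. The line is known for mutations in BRAF and NF2 and for a deletion at CDKN2A.

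The 3 libraries held 14099280, 13370952 and 13262548 reads on genes, and 20559, 20356 and 20707 genes had at least 1 read. The deposited values are counts divided by a size factor, so that levels of different genes could be compared only after division by length. Levels are therefore given in TPM, the number of transcripts out of 1000000, computed from the recovered reads and the exon length of each gene, as the mean ± SD of the 3 libraries. With the length of the longest transcript in its place, 53 of 401 listed genes of at least 1 TPM rose by over 1.5 times, which is said beside those named, and 0 fell by as much. A gene was called expressed at a mean of at least 1 TPM. It was called silent when it had exactly 0 reads in all 3 libraries. By sampling, an expected count of up to 3 reads among 40732780, or 0.0737 in 1000000, could still give 0 reads. These limits and the SDs cover counting error and the spread between dishes only.

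Of 59608 genes in the table, 38291 had a length in the annotation, and these took 99.5% of the reads. Of the 19337 protein-coding genes, 11569 (59.8%) were expressed and 4457 (23.05%) had 0 reads. Over all 59608 genes, those without a length included, 35465 had 0 reads. The shares of protein-coding genes are the background for each group of genes below. RNA was spread over many genes. The 97 genes with at least 1000 TPM took 23.9% of all TPM, the 1974 genes between 100 and 1000 TPM took 47.9%, and the 6865 genes between 10 and 100 TPM took 26.2%. The 10 most abundant genes together took 7.27% and the 100 most abundant took 24.2%. Of 4453 long noncoding RNA genes 12.3% were expressed, and of 5716 processed pseudogenes 8.0%.

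The most abundant RNA was that of IGFBP4, a secreted protein that binds insulin-like growth factors, with 13608, 13945 and 13502 TPM. TMSB10, an actin-monomer binding peptide, followed with 8276, 8353 and 7877 TPM. The lowest library of IGFBP4 lay above the highest of TMSB10, and each of the 3 libraries put IGFBP4 first. Among the other nuclear genes, S100A6, a calcium-binding protein, had 6773, 6647 and 6280.4 TPM, and ACTB, cytoplasmic beta-actin, had 6201, 6098 and 6103 TPM. The libraries of these 2 genes did not overlap, whereas those of ACTB and TMSB4X (6359, 6110.3 and 5705 TPM) did. With the longest transcript as the length, the order of these genes below IGFBP4 (9744 TPM) changed. ACTB had 7533, S100A6 6746, EEF1A1 6252 and ACTG1 6141 TPM, all above TMSB10 with 5816 TPM. HMGA1, an architectural chromatin protein that is abundant in embryonic and many cancer cells, had 4320.1, 4402 and 4267 TPM. LGALS1, the glycan-binding galectin-1, had 2725, 2959 and 2856 TPM. The other nuclear genes among the 25 most abundant were FTL, ACTG1, GAPDH, EEF1A1, ENO1, RPL8, RPS12, HSP90AB1, RPS2 and HSP90AA1, with between 2706 and 5895 TPM. They serve iron storage, the cytoskeleton, glycolysis, translation and protein folding. With each drug dose, 22 to 24 of the same 25 genes were also the 25 most abundant, and those that left were LGALS1, RPS2 and HSP90AA1.

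**Figure D1:**
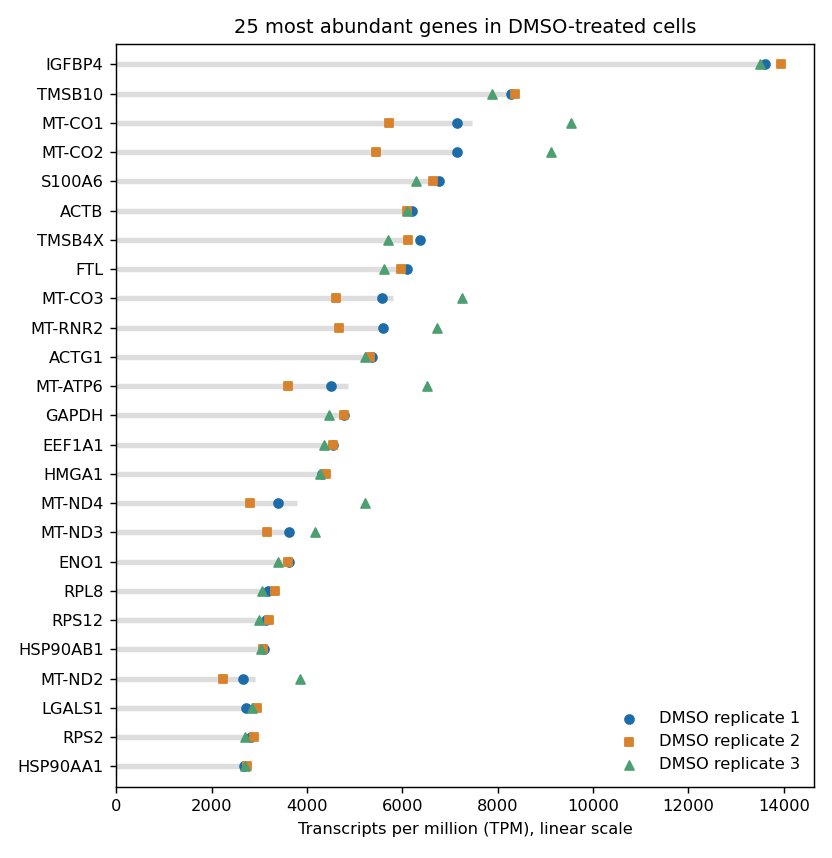
TPM of the 25 most abundant genes on a linear axis, with 1 point for each DMSO library and a bar to the mean. IGFBP4 stands apart near 13685 TPM, and in the mitochondrial genes the 3 points lie wider apart than in the nuclear genes, with replicate 3 highest.

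Promoters are shown so that 2 short motifs, counted over all promoters further on, can be read in place. Of the 25 most abundant genes 13 had a promoter in the table, of which 4 held TATAA and 3 a pyrimidine start, as defined next. All of these are shown, with 5 abundant genes that hold neither, 1 further ribosomal protein gene, 2 cytokine genes and 2 filament genes. Each line gives 50 bases before and 10 bases from a RefSeq transcription start on GRCh38.p14. Capitals mark TATAA, the core of a TATA box, or a start of C followed by 4 pyrimidines, which resembles the 5′TOP start of RNAs for ribosomal proteins and elongation factors.
IGFBP4: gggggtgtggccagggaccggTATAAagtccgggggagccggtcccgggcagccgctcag
TMSB10: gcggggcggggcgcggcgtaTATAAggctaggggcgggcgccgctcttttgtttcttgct
S100A6: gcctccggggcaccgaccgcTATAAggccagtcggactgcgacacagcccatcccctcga
EEF1A1: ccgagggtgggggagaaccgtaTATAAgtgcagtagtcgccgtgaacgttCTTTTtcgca
RPLP0: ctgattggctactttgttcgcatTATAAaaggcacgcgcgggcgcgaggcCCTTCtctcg
RPS12: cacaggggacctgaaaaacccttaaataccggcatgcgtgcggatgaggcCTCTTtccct
HMGA1: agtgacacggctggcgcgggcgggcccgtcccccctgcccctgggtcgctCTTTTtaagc
GAPDH: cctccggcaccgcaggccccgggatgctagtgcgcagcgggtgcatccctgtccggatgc
ENO1: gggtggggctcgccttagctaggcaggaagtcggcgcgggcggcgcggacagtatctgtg
FTL: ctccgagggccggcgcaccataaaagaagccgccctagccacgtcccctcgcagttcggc
TMSB4X: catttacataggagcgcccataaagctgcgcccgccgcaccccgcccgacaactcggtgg
ACTG1: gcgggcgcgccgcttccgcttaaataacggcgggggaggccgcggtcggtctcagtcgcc
IL11: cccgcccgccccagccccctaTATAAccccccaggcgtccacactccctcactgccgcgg
CXCL8: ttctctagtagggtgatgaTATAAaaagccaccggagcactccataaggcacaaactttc
VIM: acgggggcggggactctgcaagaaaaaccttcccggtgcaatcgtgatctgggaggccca
KRT5: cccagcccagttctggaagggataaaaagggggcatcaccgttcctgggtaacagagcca

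The windows lie at chr17:40443400-40443459 (plus strand) for IGFBP4, chr2:84905606-84905665 (plus strand) for TMSB10, chr1:153535982-153536041 (minus strand) for S100A6 and chr6:73521023-73521082 (minus strand) for EEF1A1. Those of the ribosomal proteins lie at chr12:120201102-120201161 (minus strand) for RPLP0 and chr6:132814519-132814578 (plus strand) for RPS12, and that of HMGA1 at chr6:34236823-34236882 (plus strand). The 5 abundant genes with neither motif lie at chr12:6535214-6535273 (plus strand) for GAPDH, chr1:8878677-8878736 (minus strand) for ENO1, chr19:48965259-48965318 (plus strand) for FTL, chrX:12975060-12975119 (plus strand) for TMSB4X and chr17:81512790-81512849 (minus strand) for ACTG1. The cytokines IL11 and CXCL8 lie at chr19:55370454-55370513 (minus strand) and chr4:73740519-73740578 (plus strand). The filament genes VIM, which was abundant, and KRT5, which had 0 reads, lie at chr10:17228191-17228250 (plus strand) and chr12:52520385-52520444 (minus strand). Neither of these last windows held TATAA. RefSeq may list other starts for a gene, and which start these cells used was not measured.

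TATAA was searched on the strand of the gene between positions -50 and -16 in 15289 promoters of protein-coding genes, of which 6.02% held it. By level the share was highest at both ends. It was 13.7% for silent genes, 7.69% under 1 TPM, 3.25% from 1 to 10 TPM, 1.90% from 10 to 100 TPM, 5.01% from 100 to 1000 TPM and 24.6% (16 of 65) at 1000 TPM or more. With TTATA, its other-strand form, which overlaps it in TTATAA, counted as well, the shares were 15.1% for silent genes, 2.27% from 10 to 100 TPM and 27.7% at 1000 TPM or more. The pyrimidine start was found in 4.68% of all promoters, in 3.40% of those of silent genes and in 32.3% (21 of 65) at 1000 TPM or more. In this highest class it was found in 15 of 20 ribosomal protein promoters and in 6 of 45 others. TATAA was in turn found in 2 of the 20 and in 14 of the 45. The ratio of observed to expected CpG over 300 bases, which is near 1 where CpG is not depleted, had a median of 0.311 for silent genes, 0.572 under 1 TPM and 0.902 at 1000 TPM or more. These are descriptions of sequence and level, and no test was made of them.

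**Figure D2:**
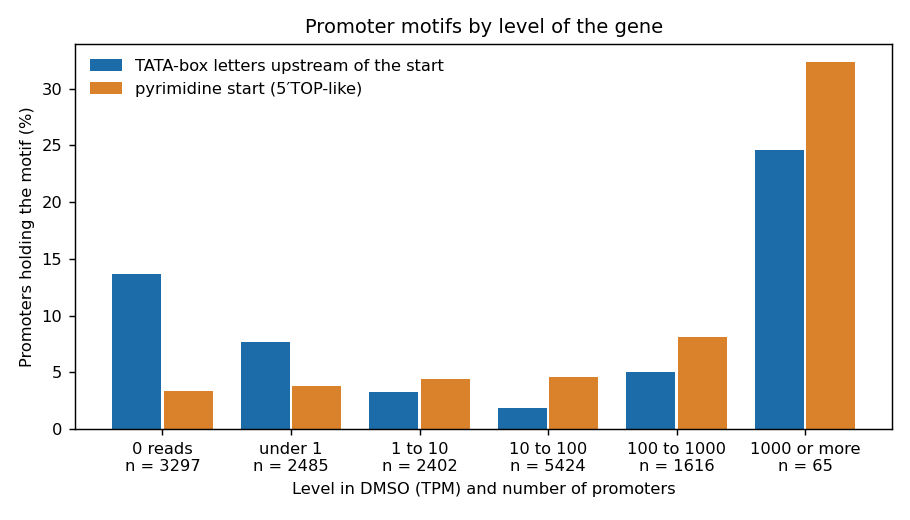
Share of promoters (%) that hold the TATA-box letters (first bar) or a pyrimidine start (second bar), by level of the gene in DMSO in TPM, with the number of promoters under each class. The TATA share falls from 13.7% in silent genes to 1.90% at 10 to 100 TPM and is 24.6% at 1000 TPM or more, and the pyrimidine start reaches 32.3% there.

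Ribosomal protein genes, which code for the proteins of the cytosolic ribosome, were expressed in 81 of 86 cases, and 74 were above 100 TPM. RPL8 had 3191, 3331 and 3052 TPM, RPS12 3145, 3212 and 2999 TPM and RPLP0 2548, 2614 and 2416 TPM. Some ubiquitous members were listed far lower. RPS18 had 0.167 TPM and RPS9 3.89 TPM, and at least 95% of the sampled words of their transcripts also stand on alternate contigs of the genome. RPS10 had 1.08 TPM, RPL36A 0.602 TPM and RPL17 6.32 TPM (12.1 with the longest transcript), and between 22.4% and 35.5% of their exon bases lie in the exons of another gene. The part of these copies and overlaps in the low values was not tested.

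The 13 protein-coding mitochondrial genes had between 278 and 7466 TPM. They code for subunits of the respiratory chain and ATP synthase. MT-CO1, a subunit of cytochrome c oxidase, had 7151, 5714 and 9535 TPM. In all of 15 mitochondrial genes, the ribosomal RNAs included, replicate 3 was highest and replicate 2 lowest. Mitochondrial RNA took 1.17%, 0.942% and 1.58% of the reads of the 3 libraries. The median coefficient of variation (CV) between dishes was 29.1% for mitochondrial genes against 3.48% for 8418 nuclear genes without an alternate copy, all of at least 5 TPM and 200 normalized counts. Because poly-A RNA was selected, these values do not give the total of mitochondrial or ribosomal RNA.

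Luminal genes gave a divided picture. The hormone receptors were at or near 0. ESR1, the estrogen receptor, had 0 reads, and PGR, the progesterone receptor, had 0.299 TPM from 42 reads. FOXA1, a pioneer factor of luminal cells, had 1.83 TPM, GATA3 13.3 TPM and ERBB2 37.4, 37.98 and 36.5 TPM. The keratins of luminal and simple epithelia were high. KRT19 had 843, 855 and 833 TPM, KRT8 562, 563 and 532 TPM, KRT7 520.2, 519 and 526 TPM and KRT18 459, 449 and 441 TPM. With the longest transcript as the length, KRT8 had 945 TPM and KRT7 914 TPM. SPDEF, a transcription factor of luminal and secretory cells, had 285 ± 14.8 TPM, and AGR2, a protein folding factor of secretory epithelium, had 144 ± 6.06 TPM (SD, n = 3). In all, 17 of 25 genes of the luminal list were expressed, 7 of them above 100 TPM, and 3 were silent.

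Basal genes were split as well. KRT5, KRT14, KRT16, KRT6B and SOX10 had 0 reads, and TP63, the basal-cell transcription factor, had 1.04 TPM. KRT14 and KRT6B have near-identical relatives, whose reads the counting could set aside. CAV1, the caveolar coat protein, had 654, 641 and 641 TPM, SFN, the epithelial protein 14-3-3 sigma, 325, 319 and 294 TPM and EGFR 90.5, 92.6 and 91.00 TPM. Of 23 genes in the list 10 were expressed.

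Junction genes of epithelium were lower but mostly present, with 21 of 31 expressed and 4 above 100 TPM. CLDN4, a tight-junction claudin, had 132, 133 and 127 TPM, EPCAM, an epithelial adhesion molecule, 40.8, 37.4 and 35.3 TPM and CLDN7 42.04, 39.8 and 43.2 TPM. CDH1, which codes for E-cadherin, had 9.68, 10.4 and 10.3 TPM from 590 reads, so that it was detected in every dish. Several, but not all, regulators that hold the epithelial state were at or near 0. ESRP1, an epithelial splicing factor, had 16 reads in all, OVOL1 and GRHL2, transcription factors of epithelium, had 1 read each, and RAB25 had 0. ESRP2, which shares its function with ESRP1, had 13.4 TPM.

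Mesenchymal genes were higher. Of 37 in the list 28 (75.7%) were expressed and 13 were above 100 TPM. The median member had 37.7 TPM against 5.56 TPM over all protein-coding genes. The median was 11.4 TPM in the luminal, 12.2 TPM in the epithelial junction and 0.574 TPM in the basal list. The lists were chosen with earlier results of these data known. VIM, the mesenchymal filament vimentin, had 881, 853 and 873 TPM. AXL, a receptor tyrosine kinase, had 744, 753 and 741 TPM, and CD44, the hyaluronan receptor, 384, 385 and 376 TPM. ZEB1, a repressor of epithelial genes, had 44.6, 49.3 and 47.9 TPM, whereas ZEB2 had 3.12 (6.07 with the longest transcript), SNAI2 11.8 and SNAI1 7.31 TPM. Several genes that often accompany this state were silent or nearly so. TWIST1, TWIST2, FOXC2, THY1 and FAP had 0 reads, CDH2, which codes for N-cadherin, had 0.267 TPM and SPARC 0.271 TPM. Among the listed genes named CDH, the highest was CDH11, with 40.2, 37.97 and 34.9 TPM. The desmosomal cadherin DSG2 was higher, with a mean of 89.1 TPM.

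**Figure D3:**
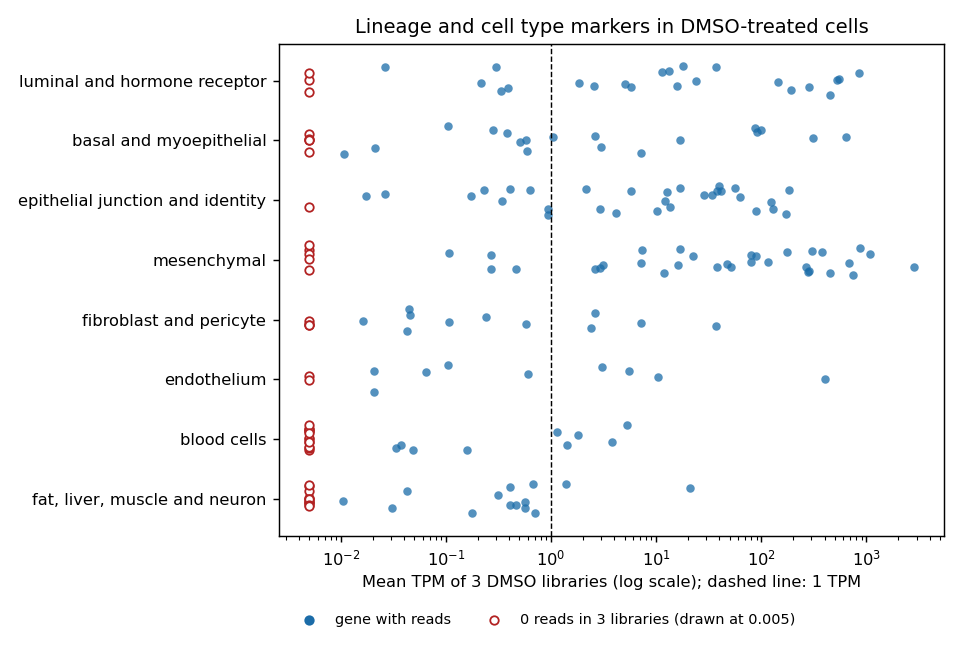
Mean TPM of the 3 DMSO libraries on a log axis for each gene of 8 marker lists, with silent genes as open circles at 0.005 and a dashed line at 1 TPM. The mesenchymal list has 28 of 37 genes past the line, the luminal list 17 of 25 and the epithelial junction list 21 of 31. The basal, fibroblast and pericyte, endothelium, blood, and fat, liver, muscle and neuron lists have most of their genes below it.

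Most markers of other cell types were under 1 TPM. Of 22 blood genes 13 had 0 reads, 5 were above 1 TPM and their summed level was between 12.3 and 14.4 TPM in the 3 libraries. PTPRC, the common leukocyte antigen, had 5 reads in all. Of 25 genes of fat, liver, muscle and neuron 11 had 0 reads and 2 were expressed, with a sum of 26.0 to 27.7 TPM, of which MBP held 20.9 ± 0.0865 TPM. Of 15 fibroblast and pericyte genes 4 were expressed, and the sum was 48.5 to 51.2 TPM, led by CSPG4 with 36.7 ± 0.635 TPM. Among 11 endothelial genes 4 were expressed. The adhesion molecule ESAM had 407, 413 and 398 TPM and PECAM1 11.7, 9.69 and 9.73 TPM, whereas CDH5 had 6 reads and ERG and FLT1 had 0. In bulk RNA, fewer cells of a type and less RNA per cell cannot be told apart.

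The filaments of these cells were a mixture of vimentin, simple keratins and a hair keratin. KRT81, a type II keratin of hair, had 1920.2, 2157 and 2051 TPM, the highest level of 35 intermediate filament genes in the list and above VIM in every dish. KRT86, which is near-identical to KRT81, had 19.1 TPM, and reads of the pair may be exchanged or set aside. KRT80 had 240.3 ± 2.49 TPM and KRT10 122 ± 4.61 TPM. Of 55 keratin genes 10 (18.2%) were expressed and 38 (69.1%) were silent, of which 9 have copies on alternate contigs. The lamins of the nuclear envelope, LMNA, LMNB1 and LMNB2, had 469, 249.96 and 554 TPM, and LMNA had 751 with the longest transcript.

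Integrins are receptors of an alpha and a beta chain that bind cells to the matrix, and the chains present set which ligand is bound. Of 26 integrin genes 14 were expressed and 7 were above 100 TPM. ITGB1, the common beta chain, had 545, 563 and 567 TPM. Its alpha partners for laminin, ITGA6 and ITGA3, had 388, 396 and 397 TPM and 357, 359 and 351 TPM, and ITGA2, for collagen, had 235, 229 and 241 TPM. ITGB4, which pairs with ITGA6 in hemidesmosomes, had 278, 273 and 268 TPM. The fibronectin receptor chain ITGA5 had 122, 123 and 118 TPM, and the chains ITGAV and ITGB5 had 39.9 and 133 TPM. In this order ITGB1, ITGA6, ITGA3, ITGB4, ITGA2, ITGB5 and ITGA5, each pair of neighbors had libraries that did not overlap. With the longest transcript as the length, ITGB1 had 1031 TPM and ITGAV 69.1 TPM, and ITGA3 (453 TPM) stood above ITGA6 (322 TPM). The leukocyte chains were low, with ITGAX and ITGA4 at 0 reads and ITGB2 at 20.3 TPM.

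Other adhesion molecules were led by CD151, a tetraspanin that binds laminin receptors, with 418 ± 13.5 TPM, CD44, NECTIN2 with 298 ± 5.07 TPM and ALCAM with 257 ± 1.52 TPM. ICAM1, a ligand of leukocyte integrins, had 86.8, 78.7 and 73.9 TPM. Of 36 adhesion genes 21 were expressed, 5 were above 100 TPM, and CDH13, CEACAM5, CEACAM6 and NCAM1 had 0 reads. CD99 had 119, 64.00 and 82.5 TPM, or a mean of 239.7 TPM with the longest transcript, and lies in the pseudoautosomal region, which 2 chromosomes of the genome carry. Among markers used to sort tumor cells, CD24 had 337 ± 10.2 TPM beside CD44 with 382 ± 5.28 TPM. NT5E (CD73) had 754 ± 13.7 TPM, and ALDH1A1 and PROM1 (CD133) had 1 and 3 reads. These are levels of RNA, and protein at the cell surface was not measured here.

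**Figure D4:**
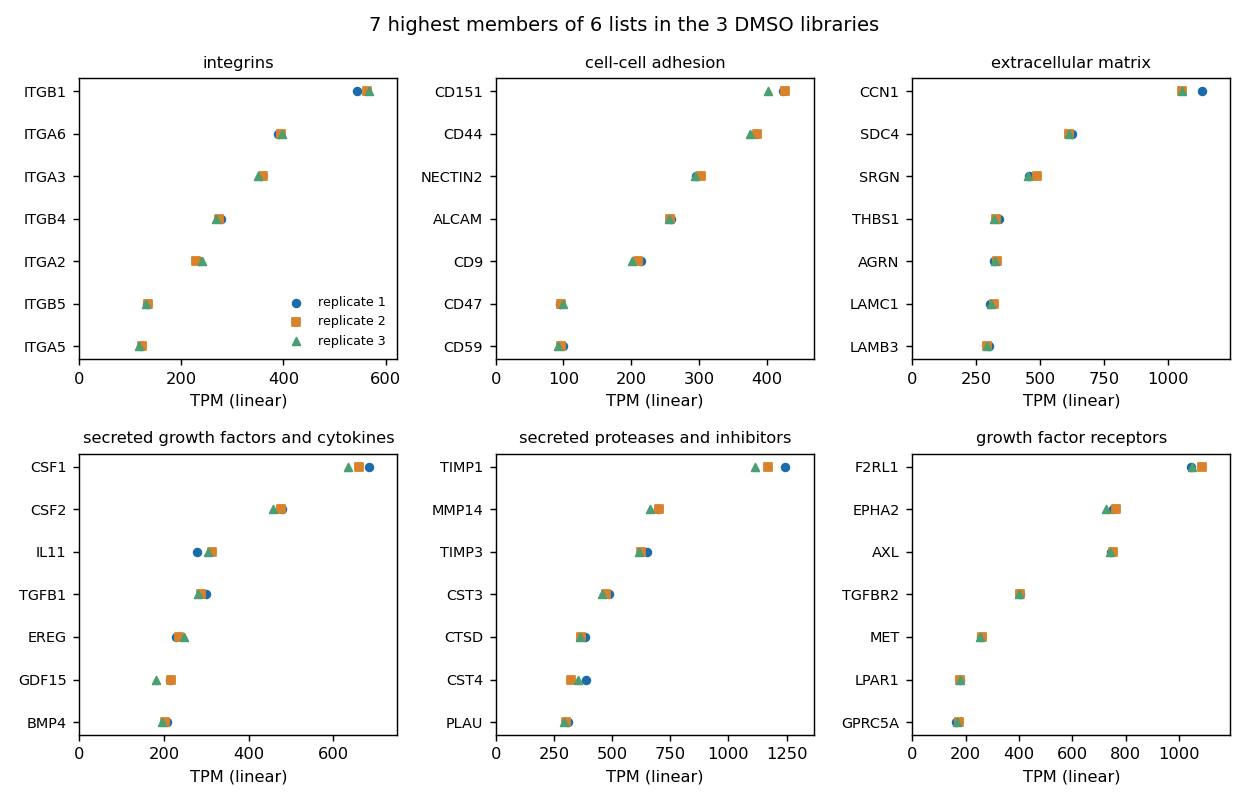
TPM of the 7 highest members of 6 lists on linear axes, with 1 point for each DMSO library. The 3 points of a gene mostly lie on each other, and in the integrin panel ITGB1, ITGA6 and ITGA3 lead in every library.

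Genes of the extracellular matrix were expressed in 39 of 53 cases, and 0 were without a read. CCN1, a secreted integrin ligand that is a target of YAP, had 1129.6, 1052 and 1053 TPM. The laminin chains of the basement membrane were prominent, with LAMC1 at 311 ± 8.81 TPM, LAMB3 at 295 ± 5.93 TPM and LAMA5 at 248 ± 2.59 TPM. The proteoglycans SDC4 and AGRN had 617 ± 6.67 and 324 ± 5.35 TPM, THBS1, an antiangiogenic matrix protein, 328 ± 8.47 TPM and FN1, fibronectin, 188, 177 and 161 TPM. Fibrillar collagen genes differed among themselves. COL5A1 had 80.4, 80.5 and 78.4 TPM, whereas COL1A1 had 7.2 TPM, COL1A2 0.107 TPM and COL3A1 3 reads. Of 44 collagen genes 18 were expressed, and COL13A1, a membrane collagen, was highest with 135 ± 1.68 TPM (324.8 with the longest transcript), before COL6A1 with 115 ± 2.06 TPM.

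The list of secreted growth factors and cytokines was led by colony-stimulating factors. CSF1, the growth factor of macrophages, had 683, 661 and 635 TPM, and CSF2, which drives granulocytes and macrophages, 478, 476 and 458 TPM. IL11, a cytokine of the IL-6 family with a role in bone metastasis of breast cancer, had 278, 313 and 305 TPM, and IL6 itself 39.8, 39.2 and 38.99 TPM. The chemokines for neutrophils, CXCL1 and CXCL8, had 207, 200.4 and 197 TPM and 187, 187 and 186 TPM. The EGFR ligands EREG, AREG, HBEGF and TGFA had 237, 189, 149 and 93.8 TPM, beside EGFR at 91.3. TGFB1 had 289 ± 10.4 TPM and its receptor TGFBR2 404 ± 2.52 TPM. Of 50 growth factors and cytokines 35 were expressed and 8 had 0 reads. CXCL12, CCL2, HGF and IGF1 were among these 8, as were TNF, CCL5 and MIF, which have copies on alternate contigs. MIF, a cytokine that many tumors make, also has 94% of its exon bases in the exons of another gene, and their part in its 0 was not tested. Of 41 chemokine genes 23 and of 40 interleukin genes 21 were silent.

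Among secreted and membrane proteases, MMP14, which cuts collagen at the cell surface, had 699, 702 and 663 TPM. PLAU, the urokinase that activates plasminogen, had 309, 301 and 291 TPM, and its receptor PLAUR 203, 199.8 and 187 TPM, or a mean of 388 TPM with the longest transcript. MMP1, an interstitial collagenase, had 92.2, 92.8 and 80.2 TPM. The gelatinases MMP2 and MMP9 had 2 and 4 reads. Their inhibitors were expressed as well. TIMP1 had 1243, 1169.6 and 1115 TPM, TIMP3 629 ± 17.2 TPM, and the cystatins CST3, CST4 and CST1 had 472, 354 and 222 TPM. Of 22 matrix metalloproteinase genes 7 were expressed.

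Receptors for growth factors were expressed in 27 of 35 cases. F2RL1, a receptor that proteases switch on, had 1045, 1084 and 1050.1 TPM, and the receptor kinases EPHA2, AXL and MET had 753, 764 and 727 TPM, 744, 753 and 741 TPM and 258, 262 and 253 TPM. FGFR2 and FLT1 had 0 reads, KIT had 3 and PDGFRA 4 reads. DDR1, a collagen receptor of epithelium, had 2 reads, and its transcript also has copies on alternate contigs.

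Of 34 oncogenes and tumor suppressors 31 (91.2%) were expressed. CDKN2A and CDKN2B, neighbors that code for inhibitors of CDK4 and CDK6, had 0 reads, as had MYCN, and neither a copy nor an overlap of the first 2 was found. Their targets CDK4 and CDK6 had 138 ± 10.5 and 37.4 ± 1.79 TPM, and CCND1, their cyclin, had 609, 594 and 611 TPM. BRAF had 4.34 TPM (7.38 with the longest transcript) and NF2 6.54 TPM. HRAS, which has alternate copies, had 8.77, 10.1 and 58.1 TPM, so that its mean rested on replicate 3, without which it was 9.44 TPM. Antigens otherwise limited to testis were silent in 13 of 24 cases, and 4 were expressed. SPANXB1 had 763, 748 and 774 TPM and MAGEC2 2.2 TPM, and the near-identical pair XAGE1A and XAGE1B had 142 and 99.8 TPM.

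The glycolytic enzymes were among the highest. Beside GAPDH with 4781, 4778 and 4462 TPM and ENO1 with 3614, 3596 and 3391 TPM, LDHA, which makes lactate, had 2296, 2298 and 2251 TPM (a mean of 4369 with the longest transcript), whereas LDHB had 8.54 TPM. The lactate exporter SLC16A3 had 402 ± 13.9 TPM and SLC16A1 0.265 TPM, and the glucose carrier SLC2A1 had 432 ± 3.55 TPM. ALDOA had 6.79 TPM, with 54% of its exon bases in the exons of another gene. Actin and its partners were as high, with 28 of 38 genes above 100 TPM. PFN1, profilin, had 2683 ± 95.4 TPM, FLNA, filamin, 808 ± 23.8 TPM and MYH9, nonmuscle myosin, 371 ± 9.04 TPM (596 with the longest transcript). ACTA2 and CNN1, of smooth muscle, had 0.574 and 0.511 TPM. Of the S100 genes, S100A6, S100A11 and S100A10 had 6567, 2260.4 and 2073 TPM, while S100A7, S100A8, S100A9, S100A12 and S100B had 0 reads.

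Enzymes that build mucin-type O-glycans were at moderate levels, with 25 of 39 expressed and 4 above 100 TPM. GALNT10 and GALNT2, which attach the first sugar, had 154, 152 and 149 TPM and 142, 142 and 144 TPM. C1GALT1, which extends it to core 1, had 48.9 ± 0.651 TPM and its chaperone C1GALT1C1 76.1 ± 0.666 TPM. B4GALT5 and B4GALT1, galactosyltransferases, had 295 ± 10.8 and 173 ± 5.15 TPM. GALNT14, GALNT8, GALNT15 and GALNT17 had 0 reads.

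Olfactory receptor genes were nearly all silent, and HOX genes in part. Of 406 olfactory receptor genes 389 (95.8%) had 0 reads and 1 passed 1 TPM, and 46 of the silent ones have alternate copies. Of 39 HOX genes, which set position along the body axis, 6 were expressed and 19 were silent, with HOXD4 at 25.1 ± 4.99 TPM and HOXB9 at 24.6 ± 0.717 TPM. Of 559 ZNF genes, by contrast, 413 (73.9%) were expressed with a median of 4.96 TPM. Of 66 replication-dependent histone genes, whose RNA normally lacks a poly-A tail, 34 were expressed, led by H2BC12 with 536 ± 27.5 TPM. Of 24 long noncoding RNAs in the list 14 were expressed. NORAD had 343 ± 5.14 TPM, GAS5 74.9 ± 1.65 TPM and NEAT1 5.81 TPM, and H19 and HOTAIR had 1 read each. MALAT1 was listed at 14.5 TPM, with 84% of its exon bases in another gene.

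Genes with a copy or an overlap had 0 reads more often. Of 805 protein-coding genes with a copy on an alternate contig 59.4% had 0 reads, against 21.5% of 18532 without one. Of 719 genes that share over 50% of their exon bases with another gene 44.9% had 0 reads. Without both kinds, 3683 of 17846 genes (20.6%) were silent and 62.8% were expressed. Copies did not always go with a 0, as B2M, which has one, had 253 ± 7.27 TPM. The genes with a copy include 46 silent olfactory receptor genes, of a family that was 95.8% silent. The shares therefore cannot tell the kind of gene from the placing of reads. How reads with several places were treated was not tested.

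The 3 dishes were close. For 8478 genes of at least 5 TPM and 200 normalized counts the median CV was 3.50%, and 37 had a CV above 20%. Of these 37, 14 have an alternate copy, 11 are mitochondrial and 12 are neither, although only 45 of the genes compared have a copy. Among the 12 are SLC25A6 and CD99 of the pseudoautosomal region, which the search for alternate copies does not cover. MTATP6P1, MTCO1P12 and MTND2P28, pseudogenes named after mitochondrial genes, are also among them. In each of these pseudogenes replicate 3 was highest and replicate 2 lowest. The 10 genes with the largest CV included 8 with a copy. SLC25A6, an adenine nucleotide carrier of the pseudoautosomal region, was the most variable, with 220.1, 1641 and 199.9 normalized counts and a mean of 139 TPM, or 42.3 TPM without replicate 2. CUTA had 98.02, 93.1 and 489 and DDX24 1492, 445 and 411 normalized counts, so that a different dish was high in each of these genes. The paired comparisons of libraries gave chi-square values of 2.04, 2.88 and 3.66 for each degree of freedom, where sampling alone gives 1. Each pair thus differed by more than the sampling of reads. Mitochondrial genes and genes with a copy were included, and the values cannot tell separate dishes from separate libraries of 1 dish.

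**Figure D5:**
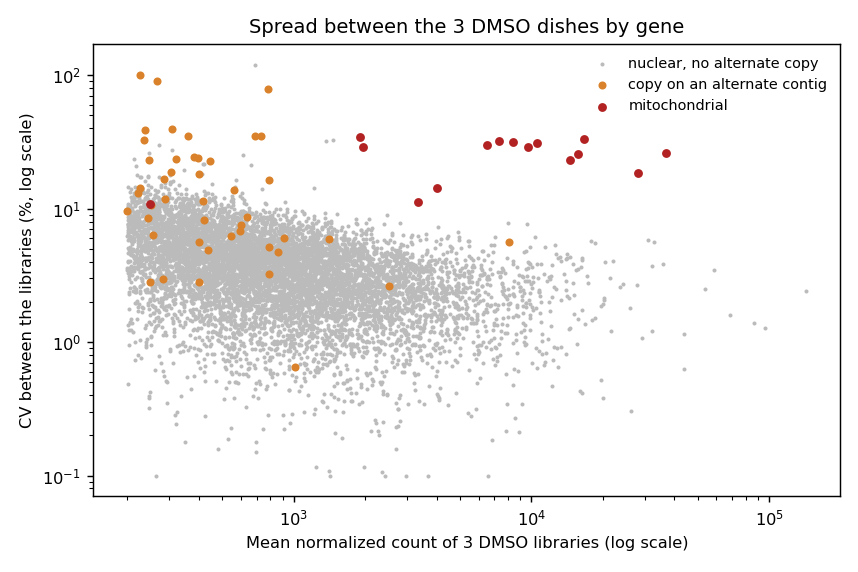
CV between the 3 DMSO dishes (%) against the mean normalized count, both on log axes, for 8478 genes, with a CV under 0.1% drawn at 0.1. Nuclear genes without a copy have a median of 3.48%, and mitochondrial genes and several genes with an alternate copy lie above the main cloud.

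The genes described here were also compared with cells given 500 nM ZJ-101, with limma on log2(normalized count + 1) over all 5 groups and Benjamini-Hochberg adjustment over 13561 genes. Of all genes tested, 17.8% passed the threshold of 0.05, 7.69% being higher and 10.1% lower with the drug. Of the 43 matrix genes tested, 26 fell and 2 rose, with a median log2 fold change of -0.43 against 0.0027 over all genes. Of 29 mesenchymal genes 13 fell and 2 rose, of 16 integrins 9 fell and 1 rose, of 36 growth factors and cytokines 15 fell and 5 rose, and of 26 O-glycosylation genes 12 fell. In some other lists more genes rose than fell. Of 27 growth factor receptors tested 8 rose and 5 fell, and of 15 long noncoding RNAs 4 rose and 1 fell. Of 4 endothelial genes 2 rose and 0 fell, and of 11 basal genes 1 rose and 0 fell. The lists share members, and both were chosen with earlier results of these data known, so that these shares are descriptions. The genes shown next were picked from the lists with their values known. The normalized counts of CSF1 were 11451, 10969 and 10610.1 with DMSO and 4234, 3897 and 4034 at 500 nM. Its log2 fold change was -1.44 ± 0.06 (SE) with an adjusted p of 5.59e-12. The normalized counts of MMP14 were 10347, 10281 and 9778 with DMSO and 3911, 3948 and 3909.9 at 500 nM. Its log2 fold change was -1.37 ± 0.05 (SE) with an adjusted p of 8.28e-13. The 3 libraries of each group stood apart for both genes. For ITGA6 the counts were 8307, 8376 and 8471 with DMSO and 4367, 4271 and 4056 at 500 nM. Its log2 fold change was -0.99 ± 0.06 (SE) with an adjusted p of 1.19e-09. Some listed genes moved the other way. The counts of EGFR were 4617, 4676 and 4629 with DMSO and 8610.00, 6919 and 7269.6 at 500 nM, a log2 fold change of 0.70 ± 0.11 (SE) with an adjusted p of 1.72e-04. Of 36 actin genes tested 5 passed, which is 13.9% against 17.8% of all genes.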

How the data were processed

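The table holds normalized counts, made by the authors from poly-A RNA and 150 bp paired reads with HISAT2 (hg38), htseq-count and DESeq2 size factors on Galaxy, so the unit is a signal per gene symbol. Strand, versions and the GENCODE release are not given in the sources used here. A line of doses was left out. Division by each library's smallest value gave whole reads for 100.0% of values within 0.001. TPM was computed from these reads and exon lengths of GENCODE 44 (GRCh38), matched by 37852 symbols and 439 RefSeq synonyms. A gene has an alternate copy when at least 50% of the 31-base words sampled along its longest transcript stand on alternate contigs of hg38, and a near-identical relative when another gene's transcript covers at least 50% of its own at 95% identity or more (minimap2 2.31-r1302). Promoters came from RefSeq, 1 per gene, nearest to the GENCODE start. Members and lists were chosen with earlier results of these data known, and the searches for copies and promoter letters after the values had been seen.

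Named genes are members of 24 lists and 12 families, the 25 most abundant, and the 10 with the largest CV. RPS18, B2M, MTATP6P1, MTCO1P12, MTND2P28 and the promoters shown were chosen after their values were seen. Some listed genes are not reported here. For the 500 nM comparison, limma 3.58.1 (R 4.3.3) was fitted to all 15 libraries with a two-sided test, for genes with a mean of at least 10, and was tested on simulated data. Fold changes on log2(normalized count + 1) understate those of low genes. Alternatives, edgeR 4.0.16 and DESeq2 1.42.0 on recovered reads among them, stand in the closing section.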

Additional observations from a re-analysis of the deposited data

How the results depend on the processing

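The number of genes expressed was 13034 at 1 TPM, 14129 at 0.5 TPM and 10409 at 5 TPM, between 12718 and 13039 with other lengths, with no length or without overlapping genes, and between 13016 and 13045 without 1 library. The number silent was 35465, 41282 with up to 3 reads allowed, and 36718 to 37002 without 1 library. Read shares without a length kept 15 of the 25 most abundant genes, the longest transcript kept 20, and leaving out 1 library kept 24 or 25. Of 33 levels recomputed, 25 moved by more than 1 SD with the longest transcript. KRT8 then had 945 TPM, ITGB1 1031 and CD99 239.7. Leaving out 1 of 3 libraries cannot move a mean by 1 SD of the same libraries. This measure therefore cannot show whether a level rests on 1 library, as the means of HRAS and SLC25A6 did. At 500 nM, 2409 genes passed, between 2023 and 2432 with another pseudocount, filter, TMM scaling, edgeR (2432) or DESeq2 (2210), 3294 with only the 6 libraries, and 1795 to 3097 without 1 library. With the replicate block 2506 passed. Same-numbered dishes of DMSO and 500 nM had correlations of deviations of -0.052, -0.086 and -0.044. Taken from means of 3 dishes, these cannot show whether same-numbered dishes were handled together. With the block, the matrix genes that rose were 3 in place of 2. The count of 5 actin genes was 5 to 10 without 1 library. Of protein-coding genes 5847 had at most 3 reads, an alternative chosen after seeing the data, as was the omission of copies and overlaps. Depth limits what 0 reads can show.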
